A study of Homo sapiens with 5 samples.

Results

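The cytosolic ribosomal proteins are the structural proteins of the ribosome that translates nuclear messenger RNA. They were compared between persister and parental cells of BT474, a human luminal breast cancer line in which HER2 (ERBB2) is amplified. Members were taken by name, as every gene symbol of the large (RPL, RPLP) or small (RPS, RPSA) subunit series, together with the related copies whose names end in L or L1. This gave 83 genes among the 18512 symbols of the authors' deposited table, 52 of the large and 31 of the small subunit. Of these, 75 were canonical ribosomal proteins and 8 were paralogs.

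Persister cells were taken after 9 days of growth with 2 µM lapatinib, which blocks the receptor kinases HER2 and EGFR, and the drug was renewed every 3 days (3 libraries). Parental cells were grown over the same time in the same solvent, 0.01% DMSO, without lapatinib (2 libraries). Both groups are the same cell line and polyadenylated RNA was sequenced; the labels number the replicates and do not say that they were separate cultures. The table gives a single FPKM per gene and group (fragments counted per transcript length and library size), so values carry no SD or n, and depth and replicate spread are unknown. FPKM is a share of the sequenced RNA, so fewer cells of a type and less RNA per cell cannot be told apart.

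A ribosome holds about equal numbers of each core protein, and their genes are transcribed at a steady, high rate in growing cells. Many of the transcripts begin with a C followed by a run of pyrimidines, the terminal oligopyrimidine (TOP) tract. Through this tract the kinase complex mTORC1 and the RNA-binding protein LARP1 control how strongly they are translated and, in part, how stable they are. Growth factor receptors such as HER2 act on mTORC1 through PI3K and AKT. RNA levels do not measure translation.

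The windows below show the start of transcripts on which the results turn, 15 bases before and 15 bases from the RefSeq start (GRCh38.p14 tables from RefSeq), read 5′ to 3′ on the strand of the gene. Capitals mark a C at the start base and the unbroken C or T run after it, where at least 4 such bases follow. Where a gene has several starts, the one with the longest run is shown. Shown first are canonical proteins called higher, not called and called lower in persister cells, then paralogs, then 2 further proteins of the small subunit, FAU and RACK1. Those shown as called higher all carry a run. Among all canonical members called higher, 11 carry one, 6 have a window without one and 3 have no window.
RPS6, chr9:19380222-19380251, minus strand: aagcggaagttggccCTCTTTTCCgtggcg
RPS23, chr5:82278340-82278369, minus strand: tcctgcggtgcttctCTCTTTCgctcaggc
RPL26, chr17:8383179-8383208, minus strand: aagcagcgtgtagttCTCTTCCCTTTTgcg
RPS27, chr1:153990747-153990776, plus strand: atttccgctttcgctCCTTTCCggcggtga
RPL22, chr1:6199581-6199610, minus strand: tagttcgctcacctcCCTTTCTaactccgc
RPL39, chrX:119791616-119791645, minus strand: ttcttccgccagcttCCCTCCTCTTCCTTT
RPLP2, chr11:809952-809981, plus strand: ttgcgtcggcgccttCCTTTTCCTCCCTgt
RPL35, chr9:124861943-124861972, minus strand: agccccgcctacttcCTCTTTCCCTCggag
RPS26, chr12:56041903-56041932, plus strand: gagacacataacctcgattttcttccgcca
RPL22L1, chr3:170870181-170870210, minus strand: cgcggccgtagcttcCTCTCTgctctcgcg
RPL26L1, chr5:172958714-172958743, plus strand: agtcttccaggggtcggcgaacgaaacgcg
RPL7L1, chr6:42879601-42879630, plus strand: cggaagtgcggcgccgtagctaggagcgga
RPS27L, chr15:63157463-63157492, minus strand: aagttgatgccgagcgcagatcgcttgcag
RPL36AL, chr14:49620612-49620641, minus strand: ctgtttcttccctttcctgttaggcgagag
FAU, chr11:65122120-65122149, minus strand: cgccctcgcttcttcCTCTTTCTCgactcc
RACK1, chr5:181243892-181243921, minus strand: ggggggcttttctctCTCTCTTTCactgca

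Such a start was common to the canonical genes and rare elsewhere. RefSeq windows were matched by symbol for 66 of the 83 members. A run of this kind stood at the start in 44 of 60 canonical genes (73.3%), in 27 of 37 of the large and 17 of 23 of the small subunit. It stood in 1 of 6 paralogs, RPL22L1. For comparison, 4.07% of all 35116 windows of the same length held one. Counted by symbol over all windows of a gene, as for the members, it was 5.14% of 27305. It was 7.21% of the 7915 other genes that had a window, were tested and reached at least 1 FPKM in both groups. A window without a match says only that these letters are not at that annotated start. Allowing the run to begin anywhere within 10 bases of the start, 57 of 66 members and 33.5% of all windows matched. A member counted if any of its windows matched, so these shares are not counted alike.

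Transcripts for the cytosolic ribosome kept nearly the same FPKM in persister cells, against the falls seen in most other abundant transcripts. A difference below is persister minus parental on the log2(FPKM + 1) scale, and a gene was called when its q-value in the authors' deposited table was under 0.05, among genes with a q-value below 1, which were taken as tested. The median difference over the 79 members tested was 0.01, against -0.04 over all 13617 genes tested and -0.12 over the 10160 of them with at least 1 FPKM in both groups. In 58 of the 79 the ratio of persister to parental FPKM lay between 0.833 and 1.2. Of the 79, 20 were called higher and 13 lower, together 41.8%, where the background over all tested genes was 69.9% called, 30.9% higher and 39.0% lower. Among the 13 lower calls 4 were paralogs, so the 72 canonical members tested had 20 higher and 9 lower, with a median of 0.03. At a q-value under 0.01, 17 were higher and 10 lower (background 62.0% called in either direction). With a difference of at least 0.5 as well as a q-value under 0.05, 0 were higher and 3 lower (background 31.2%).

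Other abundant genes were mostly lower. Of 413 other tested genes with a mean of 100 FPKM or more, 315 were called lower (76.3%) and 42 higher (10.2%), together 86.4%, with a median of -0.55. Of the 64 members at or above the same floor, 9 were called lower and 16 higher, with a median of 0.02. The floor does not match the levels: the members had median levels of 436 FPKM in persister and 405 FPKM in parental cells, and the other genes 128 and 184 FPKM. The tested members made up 12.2% of the summed FPKM of all symbols in persister cells and 9.27% in parental cells. These shares depend on the sum, which was 259812 FPKM in persister and 332885 FPKM in parental cells. It includes genes that were not tested, such as RPL23 at 0 FPKM in persister and 5076 FPKM in parental cells. Over tested genes alone the sums were 257049 FPKM in persister and 323777 FPKM in parental cells, with shares of 12.3% and 9.53%. If both groups are scaled to the same sum over all symbols, the median of the members becomes 0.37. The median becomes -0.19 for the other genes at 100 FPKM or more and 0.20 for the genes with at least 1 FPKM. Scaled to the median ratio of those genes the members have a median of 0.15. The sources used here do not give how the authors scaled the libraries, so a difference near 0 is relative to FPKM as deposited.

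**Figure D1:**
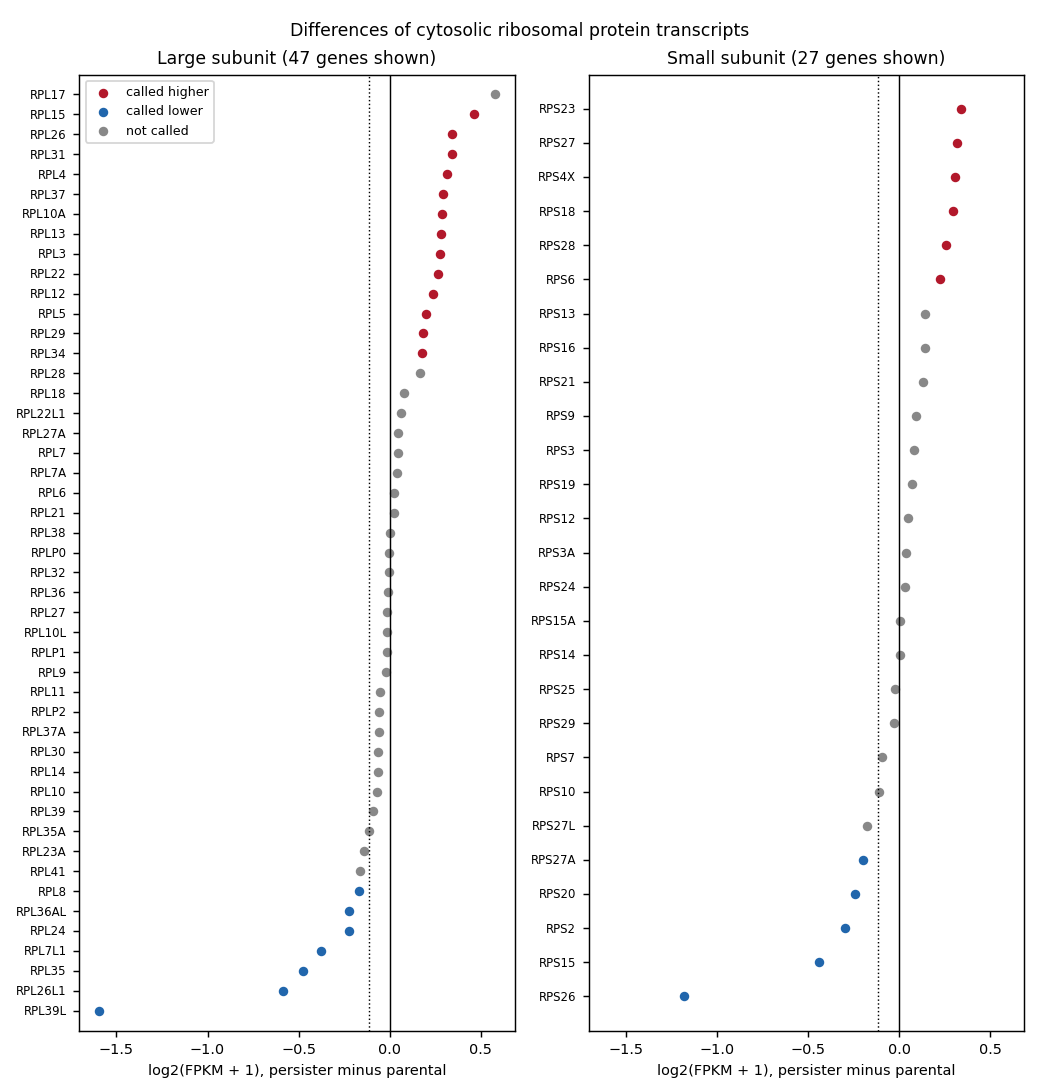
Difference in log2(FPKM + 1), persister minus parental, for 47 large and 27 small subunit genes, in order; each point is 1 gene, red if called higher, blue if called lower, grey if not called. The dotted line is the median of genes with at least 1 FPKM in both groups, at -0.12. Most genes lie close to 0, and RPL39L (-1.59) and RPS26 (-1.18) lie furthest below it.

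Both subunits behaved much alike. Of 48 large subunit members tested, 13 were called higher and 7 lower, with a median of -0.00053. Of 31 small subunit members, 7 were called higher and 6 lower, with a median of 0.04. Without the paralogs the large subunit had 13 higher and 3 lower of 42 and a median of 0.02, and the small subunit 7 higher and 6 lower of 30 and a median of 0.04. The difference between the large and the small median was -0.04 and could not be tested, because genes of a subunit are not replicates and the groups have no spread.

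Levels differed far more between members than between groups. FPKM accounts for transcript length, yet tested canonical members ran from 13.2 FPKM (RPS26) to 1436 FPKM (RPL17) in persister cells and from 31.3 FPKM (RPS26) to 1598 FPKM (RPL8) in parental cells. Their order was almost the same in both groups (Spearman's rho = 0.98 over 72 genes, which share the same libraries). The median tested canonical member stood at 408 FPKM in persister and 369 FPKM in parental cells. RPL8, at the catalytic core of the large subunit, had 1419 FPKM in persister and 1598 FPKM in parental cells. RPL30 had 1374 and 1437 FPKM and RPLP1, an acidic stalk protein, 1236 and 1250 FPKM in persister and parental cells. In the small subunit RPS18 had 1126 FPKM in persister and 918 FPKM in parental cells, RPS3 951 and 899 FPKM, and RPS24 696 and 680 FPKM in the same order.

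A few members were listed far below the others, and for these the level is uncertain. RPL21 had 37.0 FPKM in persister and 36.5 FPKM in parental cells, and RPL27A 53.5 and 51.8 FPKM. Ribosomal protein genes have many processed pseudogenes that can take reads from the parent gene, and GENCODE names 1040 for the canonical members, at least 1 for 74 of the 75. RPL23A has 91 and RPL21 has 66, but RPL27A has only 2. RPL12 has 50 and stood at 367 FPKM in parental cells. Whether pseudogenes account for the low levels was not tested. Members with more pseudogenes tended to have lower parental FPKM (Spearman's rho = -0.33 over 72 genes), while their number was almost unrelated to the difference between groups (rho = 0.07). The sources used here do not give how reads with several matches were treated, and without strand, reads of overlapping antisense genes cannot be separated either.

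**Figure D2:**
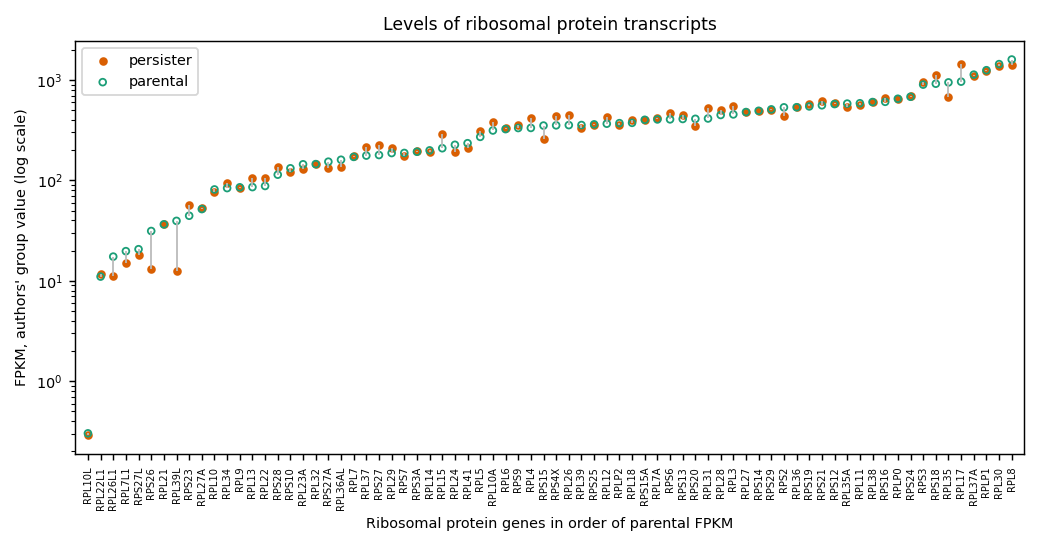
FPKM (log scale) of 74 tested members in persister (filled) and parental (open) cells, ordered by parental FPKM; each pair of points is 1 gene and a grey line joins the authors' 2 group values. Points overlap for most genes, and the gaps are widest for RPL39L and RPS26, at 12.4 and 13.2 FPKM in persister cells.

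The large subunit rises were small. RPL15 rose furthest among called members, with 289 FPKM in persister cells against 209 FPKM in parental cells (difference 0.46, q = 2.32e-12 in the authors' deposited table). RPL26 rose to 450 FPKM, against 355 FPKM in parental cells, and RPL31 to 524 FPKM, against 413 FPKM, both by 0.34. RPL4, which reaches into the peptide tunnel, rose to 413 FPKM, against 333 FPKM in parental cells. RPL37 rose to 216 FPKM, against 177 FPKM in parental cells, and RPL10A to 383 FPKM, against 314 FPKM. The other 7 rises were those of RPL3, RPL13, RPL22, RPL12, RPL5, RPL29 and RPL34, by 0.28 to 0.18.

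Falls in the large subunit were fewer and, outside the paralogs, came to 3 genes. RPL35, a protein at the tunnel exit, fell to 680 FPKM in persister cells, against 945 FPKM in parental cells (difference -0.48, q = 2.73e-12 in the authors' deposited table). RPL24, which forms a bridge to the small subunit, fell to 193 FPKM, against 226 FPKM in parental cells. RPL8, given above, fell by 0.17. With both groups scaled to the same sum RPL24 and RPL8 turn to rises of 0.13 and 0.19, while RPL35 stays lower.

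In the small subunit 6 members fell and 7 rose. RPS26, which lines the exit of the mRNA channel, fell to 13.2 FPKM in persister cells, against 31.3 FPKM in parental cells, a difference of -1.18 (the authors' deposited table lists a q-value of 0). With 30 named pseudogenes and the lowest level of all canonical members tested, its value is among the uncertain ones. RPS15, whose tail reaches the decoding site, fell to 259 FPKM, against 351 FPKM in parental cells (-0.44). RPS2, at the mRNA entry, fell to 435 FPKM, against 534 FPKM in parental cells (-0.29), and RPS20 to 347 FPKM, against 410 FPKM (-0.24). RPS27A fell by 0.20. Scaling to the same sum reverses RPS2, RPS20 and RPS27A, but neither RPS26 nor RPS15.

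The rises were of like size to those of the large subunit. RPS23, a protein of the decoding centre, rose to 56.5 FPKM in persister cells, against 44.5 FPKM in parental cells (0.34). RPS27 rose to 223 FPKM, against 179 FPKM in parental cells, and RPS4X, encoded on the X chromosome, to 438 FPKM, against 353 FPKM. RPS18 rose by 0.30 and RPS28 by 0.26. RPS6, the protein that the S6 kinases downstream of mTORC1 phosphorylate, rose to 473 FPKM, against 405 FPKM in parental cells (0.22, q = 0.00124 in the authors' deposited table).

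The other 43 canonical members tested were not called. In the small subunit these included RPS3, RPS3A, RPS7, RPS9, RPS10, RPS12, RPS13, RPS14, RPS15A, RPS16, RPS19, RPS21, RPS24, RPS25 and RPS29, with differences between -0.11 and 0.14. In the large subunit they included RPL6, RPL7, RPL7A, RPL9, RPL10, RPL11, RPL14, RPL17, RPL18, RPL21, RPL23A, RPL27, RPL27A, RPL28, RPL30, RPL32, RPL35A, RPL36, RPL37A, RPL38, RPL39, RPL41, RPLP0, RPLP1 and RPLP2. Of the 26 in the large subunit, 25 lay between -0.16 and 0.16. The exception, RPL17, had 1436 FPKM in persister and 962 FPKM in parental cells, a difference of 0.58 that was not called (q = 0.843 in the authors' deposited table). Its row also holds transcripts of C18orf32 and of their readthrough, and that of RPS10 holds transcripts of NUDT3.

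Members were also grouped by their place on the ribosome, a grouping made after their values were seen. The stalk that recruits the GTPase translation factors held its levels. Its anchor RPLP0 had 649 FPKM in persister and 650 FPKM in parental cells, RPLP1 the values given above and RPLP2 356 and 371 FPKM. RPL12 at the base of the stalk was the only one of these 4 called, at 432 FPKM in persister and 367 FPKM in parental cells. RPL5 and RPL11 form the 5S particle, which joins the assembling large subunit and, when free, binds the ubiquitin ligase MDM2. RPL5 rose to 311 FPKM, against 271 FPKM in parental cells, while RPL11, at 565 FPKM in persister and 586 FPKM in parental cells, was not called. RPL10, which joins the subunit late in assembly, had 77.5 FPKM in persister and 81.2 FPKM in parental cells.

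Proteins that line or surround the peptide exit tunnel had differences that spread both ways. RPL26, RPL31 and RPL4 rose and RPL35 fell, and RPL17, RPL23A and RPL39 were not called. Along the mRNA path, RPS28 at the exit rose, RPS26 beside it fell, and RPS14 was not called, at 495 FPKM in persister and 493 FPKM in parental cells. Of the entry proteins, RPS2 fell and RPS3 was not called.

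RPS27A and FAU, both made as fusions to ubiquitin or to a ubiquitin-like protein, were lower. RPS27A, whose product is cut into ubiquitin and a small subunit protein, fell to 134 FPKM in persister cells, against 154 FPKM in parental cells. FAU, which encodes a small subunit protein fused to a ubiquitin-like one and is not covered by the name rule, fell to 433 FPKM, against 558 FPKM in parental cells (-0.37). With both groups scaled to the same sum the difference of RPS27A becomes 0.16 and that of FAU -0.01. RACK1, a signalling scaffold on the small subunit head, rose to 773 FPKM, against 678 FPKM in parental cells (0.19). Of the 3 genes tested from the list of ribosome genes outside the rule, 1 was called higher and 2 lower. These are too few to set against the background, where 39.0% of all tested genes were called lower. Of other genes with a mean of 100 FPKM or more it was 76.3%. Setting FAU beside RPS27A was done after the values were seen.

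The tested paralogs were called lower or not called, and RPL39L fell furthest among them. None of the 7 tested was called higher and 4 were called lower (57.1%), with a median of -0.22. Of 4395 other genes with a mean of 10 to 50 FPKM, 50.9% were called lower, with a median of -0.19. That range does not match all paralogs. RPL36AL had 137 FPKM in persister and 160 FPKM in parental cells, and RPL10L 0.290 and 0.303 FPKM. Scaled to the same sum the paralog median becomes 0.07. RPL39L, a copy of the tunnel protein RPL39 that is abundant in testis and in some cancers, fell to 12.4 FPKM in persister cells, against 39.5 FPKM in parental cells (-1.59; the authors' deposited table lists a q-value of 0). RPL39 itself had 333 FPKM in persister and 356 FPKM in parental cells and was not called. The paralog thus made up 3.59% of the summed FPKM of the pair in persister cells and 10.0% in parental cells. Closely related copies can share reads, and how such reads were assigned is not given, so shares within a pair are uncertain.

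RPL26L1 fell to 11.3 FPKM, against 17.4 FPKM in parental cells (-0.59), while its parent RPL26 rose. Its part of the pair was 2.44% in persister and 4.68% in parental cells. RPL7L1, related to an assembly factor of the large subunit known from yeast, fell to 14.9 FPKM, against 19.7 FPKM in parental cells (-0.38), with RPL7 at 177 and 171 FPKM. RPL36AL, nearly identical to RPL36A, which was not analysed here, fell to 137 FPKM, against 160 FPKM in parental cells (-0.22), and scaling to the same sum turns this to 0.13.

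The other paralogs were not called. RPS27L had 18.2 FPKM in persister and 20.6 FPKM in parental cells, while RPS27 rose. RPL22L1 had 11.6 FPKM in persister and 11.02 FPKM in parental cells, while RPL22 rose to 106 FPKM, against 88.0 FPKM in parental cells. RPL10L had 0.290 and 0.303 FPKM in persister and parental cells, and RPL3L, the form of heart and skeletal muscle, had 0.00324 and 0.0275 FPKM and was not tested. In 5 of the 6 pairs with both genes tested, the paralog difference was below that of its parent, with paralog minus parent at -0.20 for RPL22L1 and -1.501 for RPL39L at the extremes. For RPL10L minus RPL10 the value was 0.05, and -0.21 when scaled to the same sum, because the pseudocount weighs on so low a value. Median differences were -0.19 for other genes with a mean of 10 to 50 FPKM and 0.03 for canonical members. The count of 5 in 6 therefore does not set paralogs apart from other genes at such levels.

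**Figure D3:**
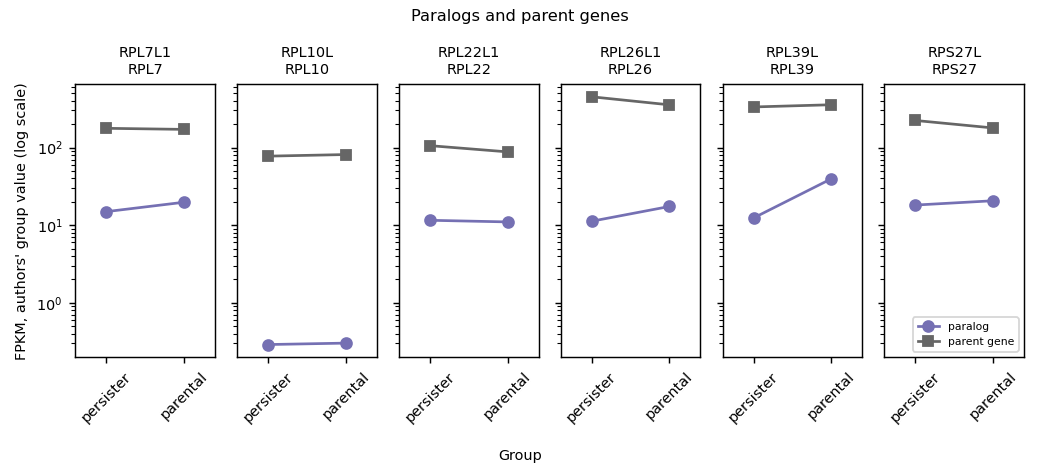
FPKM (log scale) in persister (left) and parental (right) cells for the 6 pairs in which both genes were tested; circles are the paralog and squares its parent gene, each point the authors' group value. RPL39L and RPL26L1 are lower in persister cells, with differences of -1.59 and -0.59, against -0.09 for RPL39 and 0.34 for RPL26.

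Differences were also listed by the presence of a pyrimidine run at the start, with no test. The 43 tested canonical members with a run had a median of 0.04, with 11 called higher and 3 lower. The 15 with a window and no run there had a median of 0.03, with 6 higher and 2 lower, and the 14 without a window had a median of -0.03, with 3 higher and 4 lower. The share called was 32.6% with a run, 53.3% of the 15 without one and 50% of the 14 without a window. Over all tested genes it was 69.9%. Among other genes with at least 1 FPKM in both groups, 571 had a run, with a median of -0.15 and 73.2% called. The 7344 without one had a median of -0.11 and 71.4% called. RPS26 and RPL35, both lower, differed in this feature, as the windows above show, and so did RPS23, which carries a run, and RPL15, which rose and carries none in its windows.

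Of other mRNAs known or reported to begin with such a tract, most of them for translation factors, more were called higher than lower. Of the 19 on the list, 10 were called higher (52.6%) and 5 lower (26.3%), against 30.9% and 39.0% over all tested genes. Their median was 0.19, or 0.55 when scaled to the same sum, under which the falls of EEF1D and EIF3A turn to 0.0916 and 0.11. EEF2, the factor that moves the ribosome along, rose to 592 FPKM in persister cells, against 421 FPKM in parental cells (0.49). EIF3F rose to 83.9 FPKM, against 62.8 FPKM in parental cells, and EIF4B, which aids the unwinding of mRNA, to 56.4 FPKM, against 42.7 FPKM. The elongation factor EEF1A1 rose to 442 FPKM, against 380 FPKM in parental cells, and TPT1 to 803 FPKM, against 677 FPKM. VIM, an intermediate filament gene also on this list, rose by 3.55, far more than the rest. The nuclear import receptors IPO5 and IPO7 fell to 18.7 and 42.5 FPKM, against 32.4 and 58.7 FPKM in parental cells, and the nucleolar protein NPM1 to 144 FPKM, against 196 FPKM.

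Genes that chaperone ribosomal proteins or assemble the subunits were lower in persister cells. Of 21, 20 were called lower (95.2%) and 0 higher, with a median of -0.52 as deposited and -0.17 when scaled to the same sum. For comparison, 39.0% of all tested genes and 50.9% of other genes with a mean of 10 to 50 FPKM were called lower. BRIX1 fell to 41.4 FPKM in persister cells, against 83.5 FPKM in parental cells, and the export adaptor of the large subunit, NMD3, to 28.1 FPKM, against 56.4 FPKM. LTV1, which accompanies RPS3 into the small subunit, fell to 10.0 FPKM, against 20.0 FPKM in parental cells. HEATR3, which carries RPL5, fell to 7.39 FPKM, against 13.5 FPKM in parental cells. TSR2, the chaperone of RPS26, fell to 31.4 FPKM, against 45.2 FPKM in parental cells, and GRWD1, the chaperone of RPL3, to 13.9 FPKM, against 24.4 FPKM. The exception was the nuclease NOB1, at 22.2 FPKM in persister and 23.5 FPKM in parental cells, which was not called.

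Mitochondrial ribosomal proteins, which are also encoded in the nucleus but serve the ribosome of the mitochondrion, were lower as a group. Of 75 genes named MRPL or MRPS, 68 were called lower (90.7%) and 0 higher. Over all tested genes 39.0% were called lower, and of other genes with a mean of 10 to 50 FPKM 50.9%. The 75 genes had a median of -0.63 as deposited and -0.29 when scaled to the same sum. The cytosolic members had medians of 0.01 and 0.37 in these 2 settings. No test of the difference between these gene groups could be made, since it would treat genes as replicates.

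**Figure D4:**
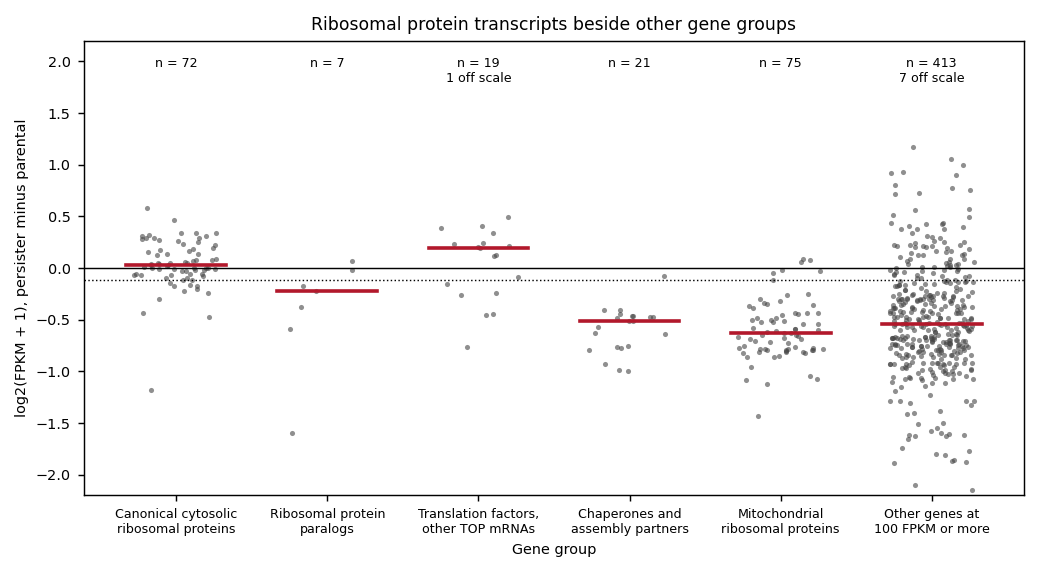
Difference in log2(FPKM + 1), persister minus parental, for canonical ribosomal proteins, their paralogs and 4 other groups of tested genes; each point is 1 gene, the red bar is the group median, the dotted line the median of genes with at least 1 FPKM in both groups, and points beyond -2.2 or 2.2 are counted above the group. Canonical members centre on 0.03, with medians of -0.52 for assembly partners and -0.63 for mitochondrial ribosomal proteins.

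Genes that control ribosomal protein transcripts moved in both directions. Of 17 genes of mTORC1 and of TOP mRNA control, 11 were called lower (64.7%) and 4 higher (23.5%), where the 10 to 50 FPKM genes had 50.9% lower and 23.5% higher. Their median was -0.26, which becomes 0.09 when scaled to the same sum. The 4 that rose are known to restrain the pathway, as is AKT1S1, which fell to 35.9 FPKM in persister cells, against 52.9 FPKM in parental cells. TSC1 rose to 26.3 FPKM in persister cells, against 8.35 FPKM in parental cells, DDIT4 to 52.4 FPKM, against 21.6 FPKM, DEPTOR to 42.8 FPKM, against 21.2 FPKM, and TSC2 to 15.1 FPKM, against 11.7 FPKM. The kinase RPS6KB2 fell to 25.9 FPKM, against 54.6 FPKM in parental cells, and the translation repressor EIF4EBP1 to 28.9 FPKM, against 58.7 FPKM. LARP1 was not called, with 41.9 FPKM in persister and 42.1 FPKM in parental cells.

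Transcription of ribosomal protein and ribosomal RNA genes was represented by 12 tested genes, 5 called higher (41.7%) and 4 lower (33.3%). Over all tested genes the shares were 30.9% and 39.0%, and over the 10 to 50 FPKM genes 23.5% and 50.9%. The median levels of the 12 were 15.5 FPKM in persister and 12.3 FPKM in parental cells. Their median difference was -0.05 and becomes 0.27 when scaled to the same sum. MYC, which drives both gene classes, rose to 56.3 FPKM in persister cells, against 49.5 FPKM in parental cells. Those that rose furthest were its antagonists MXI1 (15.5 FPKM against 4.43 FPKM in parental cells), MXD4 (32.7 against 13.2 FPKM) and MXD1 (5.62 against 2.72 FPKM). POLR1A and POLR1B, the large subunits of RNA polymerase I, and its factors RRN3 and TAF1B fell by 0.19 to 0.40, and of these only POLR1A turns positive (0.13) when scaled to the same sum.

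In the list around the 5S particle, which apart from RPL5, RPL11 and RPL23 held 6 genes, 3 rose and 1 fell, too few to set against the background. MDM2 fell to 11.5 FPKM in persister cells, against 17.6 FPKM in parental cells. GLTSCR2, a nucleolar protein that handles the 5S particle, rose to 91.4 FPKM, against 52.8 FPKM in parental cells, and MDM4 to 6.38 FPKM, against 4.38 FPKM. CDKN1A, an inhibitor of the cell cycle, was not called, with 21.9 FPKM in persister and 21.3 FPKM in parental cells.

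Of the 83 members, 4 were not tested and are left out of the counts of calls and the medians above, but not of the counts of members, start windows and pseudogenes. RPL23 was listed at 0 FPKM in persister and 5076 FPKM in parental cells with a fold of 1 and a q-value of 1 in the authors' deposited table, and was taken as having no estimate. RPL19 was listed at 0 in both groups. RPL13A, a component of a translation-silencing complex in myeloid cells, had 289 FPKM in persister and 223 FPKM in parental cells, again with fold and q-value set to 1. RPL19 and RPL23 lie on chromosome 17 near ERBB2, with 10 and 17 protein-coding genes in between. A second row for RPS18 was listed at 0 in both groups and was not used. RPSA and RPL36A, which the rule also covers, were not analysed here.

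All 8 luminal epithelial markers checked reached 1 FPKM, with a sum of 1874 FPKM in persister and 2728 FPKM in parental cells. Of the 8 markers, 6 were called lower (75%) and 2 higher. Over all tested genes 39.0% were called lower, and of other genes with a mean of 100 FPKM or more 76.3%. Summed FPKM was 8.74 in persister and 13.5 in parental cells for 7 fibroblast markers, nearly all of it COL1A1, 6.05 and 7.06 for 7 immune markers, and 0.144 and 1.19 for 6 endothelial markers. The leukocyte marker PTPRC stood at 0.00588 FPKM in persister and 0.00138 FPKM in parental cells. As no library values are given, the agreement of replicates, and whether 1 library decides a value, was not tested.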

How the data were processed

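Polyadenylated RNA of 3 persister and 2 parental libraries was sequenced without keeping strand on an Illumina instrument, each library over 5 lanes, per the labels' protocols. CASAVA 1.8, TopHat2 2.0.6, Cufflinks and Cuffdiff 2.0.2 and the build hg18 are named in the submitters' processing notes, without settings. The authors deposited 1 table of 18803 rows with an FPKM per gene and group, per the file headers. The q-value is the adjusted p-value of the comparison by the authors, per the file headers. The deposited fold column, given as text in 935 rows, served only to find rows without an estimate. In 145 rows fold and q-value were 1 although FPKM differed by over 0.6%.

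A symbol on several rows was represented by its row of highest mean FPKM. Differences are log2(FPKM + 1), a pseudocount that understates changes of low genes. With group values alone no test was run here: a gene was called at a q-value under 0.05, as set out for this case. Depth is unknown, so no interval or detection limit is given. Members, lists and tests were chosen with earlier results of these data known, and the mitochondrial and 100 FPKM groups and places on the ribosome after values were seen. Named genes were all paralogs with their parents, the 6 largest rises and falls and 3 highest levels per subunit, members not called or not tested, members with a known separate role and up to 4 called genes per list. List genes named beyond 4 were chosen after their values were seen. Pseudogenes were counted by name in GENCODE 29, and start windows came from RefSeq tables on GRCh38.p14, whose build is not that of the authors. Some genes that the rule would name are counted but not reported by name here or shown by name in the plots. Counting was tested on simulated data. Python 3.11.15, pandas 2.3.3 and matplotlib 3.10.9 were used.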

Additional observations from a re-analysis of the deposited data

How the results depend on the processing

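The counts of members called higher (20) and lower (13) could not change in some settings, which are therefore no check of them. A minimum of 1 FPKM removes no called member, and the only second row of a member, for RPS18, adds 0. Direction was also taken relative to the median of the genes with at least 1 FPKM in both groups (-0.12). All called differences were larger in size than that, the smallest being that of RPL8 (-0.17). The counts were 17 and 10 at a q-value under 0.01. They were 0 and 3 at a q-value under 0.05 with a difference of at least 0.5, which RPL39L, RPS26 and RPL26L1 passed. The median difference of the members was 0.37 with FPKM scaled to the same sum and 0.15 with FPKM scaled to the median ratio. In those 2 settings the large subunit median was 0.36 and 0.13 and the small subunit median 0.39 and 0.17. Scaled to the same sum, 7 of the 13 falls reversed, among them RPL24 (0.13), RPL36AL (0.13), RPL8 (0.19), RPS2 (0.0619), RPS20 (0.12) and RPS27A (0.16). Each shift follows from the factor applied, 1.28 for the sum and 1.10 for the median ratio. Pseudocounts of 0.1 or none moved no called member by 0.1. No paired analysis was possible because the table has 1 value per group and none per replicate, and for the same reason no replicate was left out. Differences within replicate spread cannot be told from others except through the q-value.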

Other observations

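Canonical ribosomal protein genes often carry snoRNA genes in their introns, which guide the modification of ribosomal RNA. GENCODE places 58 snoRNA genes within 27 of the 75. The 25 hosts tested had a median difference of 0.04, with 6 called higher (24%) and 2 lower (8%). The 47 tested without one had a median of 0.00492, with 14 higher (29.8%) and 7 lower (14.9%). Over all tested genes 30.9% were called higher and 39.0% lower.

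Of 12 genes for the rescue of stalled ribosomes and related quality control, 7 were called lower (58.3%) and 0 higher in persister cells, where 50.9% of other genes with a mean of 10 to 50 FPKM were called lower and 23.5% higher. Their median was -0.24, which becomes 0.09 when both groups are scaled to the same sum. ABCE1, which splits ribosomes after termination, fell to 17.1 FPKM in persister cells, against 29.9 FPKM in parental cells, and SERBP1, which binds idle ribosomes, to 22.2 FPKM, against 36.8 FPKM. ASCC3, a helicase that takes collided ribosomes apart, fell to 13.6 FPKM, against 20.3 FPKM in parental cells. USP10, which removes ubiquitin from stalled small subunits, fell to 21.8 FPKM, against 28.7 FPKM. The ligase LTN1 was not called, at 7.14 FPKM in persister and 6.38 FPKM in parental cells.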
